A study of Mus musculus with 19 samples.

Results

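FDCPmix cells were compared at 12 h after tamoxifen with treated cells at 0 h on 4 of the 19 arrays of this mouse series, chosen as the arrays whose own RNA carries the 12 h source label. FDCPmix cells are mouse blood progenitors kept growing by interleukin-3, and they can mature into several lineages. Every one of the 4 arrays paired cells that had received tamoxifen, a ligand of the oestrogen receptor, with a reference of cells treated in the same way and taken at 0 h, so both channels carry the treatment. Replicates 1 and 2 carried the 12 h RNA in Cy5, and replicates 3 and 4 carried it in Cy3. The other arrays of the time course were taken at 3 h (4 arrays), 7 h (4 arrays) and 23 h (3 arrays) against 0 h, and lend their spread to the tests. The labels name no receptor fusion or other construct that would answer to tamoxifen. They also carry the words ES cell line, and their protocols speak of organs and of pooled control animals, neither of which matches a haematopoietic line.

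In bone marrow, granulocytic cells fill their granules in a fixed order. Elastase and myeloperoxidase are made at the promyelocyte stage, and cathelicidin, lactoferrin and the neutrophil collagenase follow later. Proliferating progenitors copy their DNA with a helicase of MCM proteins and a sliding clamp, and fold their chromosomes with condensin before dividing. Glycolysis genes in such cells respond to oxygen and to cytokine supply, and ribosomal protein genes rise and fall largely as 1 group.

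Each value is a log2 ratio of the own RNA to the 0 h reference, centred on the array's median, with the probes of a gene averaged. The base and the numerator are assumed, because the sources used here do not give them, and a ratio holds no level, so the cell type could not be checked against its markers. The deposited signs were kept: a single extreme value repeated on 11 to 21 spots of each 12 h array was 16.68 and 17.031 with the own RNA in Cy5 and -16.725 and -16.603 with it in Cy3. Over all probes the Spearman correlation was 0.484 between replicates 1 and 2 and 0.151 between replicates 3 and 4, but -0.202 to -0.047 between arrays of opposite dye. Arrays of 1 dye were thus alike and arrays of opposite dye were not, and values below use the deposited signs unless the changed Cy3 signs are named. The labels do not say that replicates were separate cultures, so p-values measure the spread between arrays, whose small number bounds the precision. In bulk RNA, fewer cells of a type and less RNA per cell cannot be told apart.

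The comparison of 12 h versus 0 h tested 16089 features in limma with the spread of all 15 time-course arrays. An adjusted p of 0.05 was passed by 3 features (0.0186%), of which 2 were higher (0.0124%) and 1 was lower (0.00622%). At an unadjusted p under 0.05 there were 1005 features (6.25%), with 545 higher (3.39%) and 460 lower (2.86%). On every array with a value 1217 features lay above 0 (7.56%) and 1128 below (7.01%). Clk4, a kinase of SR splicing factors, had no value on replicate 1 and read 0.71, 1.89 and 2.00 on the others, with a fitted value of 1.51 (SE 0.19, n = 3, limma adjusted p = 0.0277). At 3 h, 7 h and 23 h it lay between -0.36 and 0.23 on every array. Probe 8896 rose by 2.01 (SE 0.26, n = 3, adjusted p = 0.0277), with 2.07, 2.01 and 2.00 on replicates 1, 2 and 4, and probe 13060 fell by 1.40 (SE 0.16, n = 3, adjusted p = 0.0232), with -1.80, -0.80 and -1.59. Neither probe has a gene symbol in the table used here.

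All 3 lack 1 array, and their values recur on other spots of an array. The deposited value of Clk4 on replicate 4, 2.007, stood on 7 spots, probe 8896 among them, and its value on replicate 3, 1.885, on 9 spots. The value of probe 13060 on replicate 4, -1.578, stood on 11 spots. On the 12 h arrays, values over 0.7 in size that recur exactly on at least 5 spots made up 22.5%, 26.2%, 38.1% and 37.9% of all values over 0.7. For 12 h versus 0 h with such values left out, 0 features passed with all 15 arrays in limma (smallest adjusted p = 0.197, 985 at an unadjusted p under 0.05), and with values required on all 4 arrays 0 passed as well (smallest adjusted p = 0.203, 982 unadjusted). What makes values recur was not tested. Single arrays also decided these calls. Without replicate 3 or 4 the limma adjusted p of Clk4 was 0.0991 and 0.156, without replicate 1 or 4 that of probe 13060 was 0.0543 and 0.156, and without replicate 1, 2 or 4 that of probe 8896 was 0.154, 0.0968 and 0.190. With the Cy3 signs changed Clk4 stood at -0.99 (adjusted p = 0.345).

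On 2 of the 15 arrays the values of many genes run opposite to their group: 7 h replicate 4, whose recurring extreme value, 16.291, is positive although its own RNA was in Cy3, and 23 h replicate 3, whose deposited median was 0.233. On the latter the recurring extreme is -16.61, negative like that of most Cy3 arrays, which gives no ground for doubt. That array was thus doubted largely on its outcome, and the choice of both was made with earlier results of these data known. Neither is a 12 h array, so leaving both out keeps the 12 h values nearly as they are and narrows the spread they are tested against. Without them 42 features passed (0.261%), 13 higher (0.0808%) and 29 lower (0.18%). Of these, 29 carry a gene symbol, 8 higher and 21 lower, and all 42 lay on 1 side of 0 on every 12 h array with a value. The genes named from here on as having risen or fallen passed in this second fit and, Clk4 apart, not with all 15 arrays, and they were named after their values were seen. The 15-array adjusted p-values of the 28 others ran from 0.192 to 0.863. Leaving out only 7 h replicate 4 left 1 call, and leaving out only 23 h replicate 3 left 7. With the signs of the Cy3 arrays changed, the fit without both arrays called 4 features; 0 of the 42 kept a call in the same direction, and 26 of the 42 took the opposite sign. With those changed signs the fitted values of the 29 genes with a symbol were -0.98 for Clk4 and between -0.33 and 0.24 for the others. The size of each rise or fall below thus rests on the deposited signs. Because all 42 lay on 1 side of 0 on every 12 h array, changing the Cy3 signs had to bring their fitted values towards 0. For these features the changed signs show what the calls assume and cannot test them. Over all settings tried for 12 h versus 0 h the number of calls ran from 0 to 396, the most with arrays weighted by their own spread and the Cy3 signs changed, where the deposited signs gave 20. Of the 195 spot values of the other features called without both arrays, 1 was a large recurring one. Only values over 0.7 in size could count as such, and many of the 195 are smaller. That count is therefore not comparable with the shares above and does not clear these calls.

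**Figure D1:**
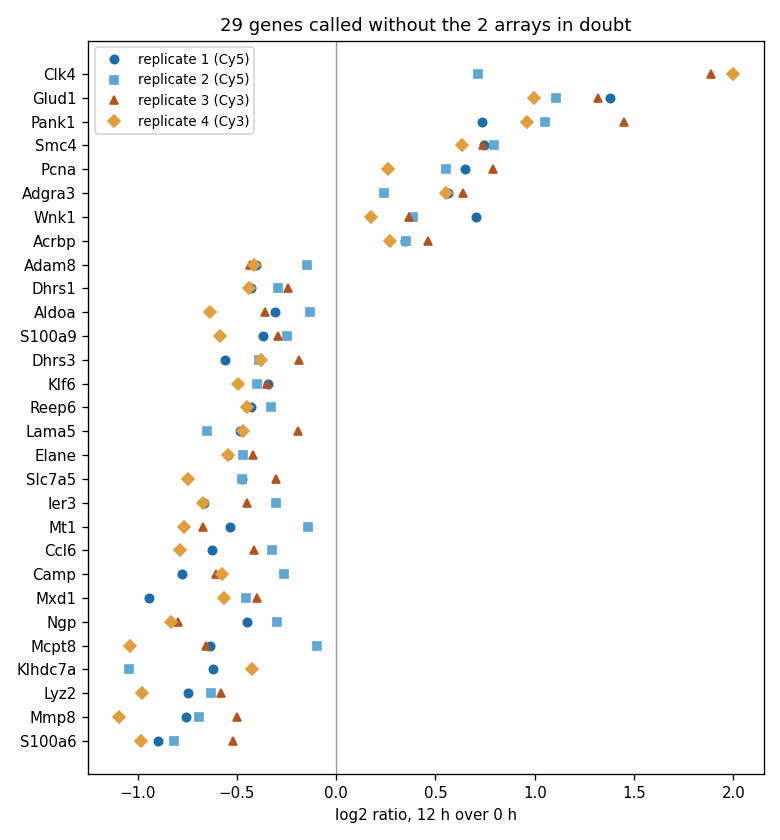
Log2 ratio at 12 h over 0 h (x axis) on each of the 4 arrays (points, coloured by replicate and own dye) for the 29 genes called without the 2 arrays in doubt, ordered by fitted value. Every point of a gene lies on 1 side of 0, with 8 genes above and 21 below.

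The clearest rise was in Glud1, the mitochondrial glutamate dehydrogenase that turns glutamate into 2-oxoglutarate. Its log2 ratios were 1.38, 1.11, 1.32 and 0.998 on replicates 1 to 4. All 4 arrays were high under both dyes, and the fitted value was 1.20 (SE 0.08, n = 4, limma adjusted p = 0.000139). With all 15 arrays the SE was 0.42 and the adjusted p 0.687, and with the Cy3 signs changed the fitted value was 0.04. The arrays in doubt read -1.24 at 7 h and -1.60 at 23 h, where the other arrays of those times lay between 0.93 and 1.53. Both probes of Glud1 were above 0 on every 12 h array.

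Pank1, a pantothenate kinase that takes the first step of coenzyme A synthesis, rose as well. It stood at 0.73, 1.05, 1.45 and 0.96 on the 4 arrays, with a fitted value of 1.05 (SE 0.09, n = 4, adjusted p = 0.00111 in limma; 0.396 with all 15 arrays). Replicate 3 was the highest and replicate 1 the lowest, and no array came near 0. Of the 6 genes of coenzyme A synthesis that could be tested, all 6 had fitted values above 0, against 51.1% of all features. Pank1 alone passed, beside 0.0808% of all features called higher. Pank2, a second pantothenate kinase, read 0.12, 0.03, 0.17 and 0.15 and did not pass (fitted 0.12). The median of the 6 genes was 0.07, beside 0.00 over all features. With the Cy3 signs changed both directions turned, to -0.16 for Pank1 and -0.05 for the list median.

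Smc4, an ATPase subunit of condensin, rose with little spread between arrays. Its values were 0.74, 0.79, 0.74 and 0.63, close together under both dyes, and the fit gave 0.73 (SE 0.07, n = 4, limma adjusted p = 0.00332). With all 15 arrays the SE was 0.13 and the adjusted p 0.192, and without 23 h replicate 3 alone the adjusted p was 0.036. With the Cy3 signs changed the fitted value was 0.04, and the list median of condensin and cohesin was 0.02. The rest of condensin and cohesin was less uniform. Of 16 tested members 13 had values above 0, against 51.1% of all features, the list median was 0.11, and array medians were 0.12, 0.13, 0.14 and -0.01 on replicates 1 to 4, so replicate 4 did not show it. Pds5b, a cohesin regulator, read 1.49, 0.18, 0.72 and 1.32 and did not pass (fitted 0.93, SE 0.32). Smc2, the partner of Smc4 within condensin, stood at 0.05, 0.06, -0.25 and -0.07.

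Among replication genes Pcna, the sliding clamp of DNA polymerases, rose. It stood at 0.65, 0.56, 0.79 and 0.26, lowest on replicate 4, with a fitted value of 0.56 (SE 0.08, n = 4, limma adjusted p = 0.0141; 0.62 with all 15 arrays). Of 40 tested genes of DNA replication and S phase, 1 passed, beside 0.0808% of all features called higher. Of the 40, 29 lay above 0, against 51.1% of all features. On the unadjusted scale 8 were higher and 1 lower, beside 3.39% and 2.86% of all features. The helicase subunit Mcm6 read 0.26, 0.17, 0.37 and 0.15, and Cdc45, which joins MCM in the active helicase, read 0.38, 0.38, 0.23 and 0.21. Neither passed, although all 4 arrays were above 0 for both. The mean of both probes of Cdc6, a licensing factor that loads MCM, lay the other way at -0.44, -0.50, -0.13 and -0.16, but the probes disagreed, with means of -0.75 and 0.13. The list median was 0.05 under the deposited signs and 0.01 with the Cy3 signs changed.

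Other rises were smaller or in genes of unrelated function. The kinase Wnk1, which regulates ion transport, stood at 0.41 (SE 0.07, n = 4) with arrays from 0.18 to 0.70. Adgra3, an adhesion receptor, stood at 0.50 (SE 0.07, n = 4), and Acrbp, an acrosin-binding protein, at 0.36 (SE 0.05, n = 4). Their limma adjusted p-values were 0.042, 0.0161 and 0.0161, and 0.815, 0.737 and 0.702 with all 15 arrays.

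Among falling genes, granule products of neutrophils and promyelocytes stood out by number. Of 19 tested granule markers of neutrophils and promyelocytes, 5 fell, 0 rose and 14 did not pass, against 0.18% of all features called lower. Of the 19, 11 were below 0 on every array, against 7.01% of all features. The list median was -0.33, with array medians of -0.37, -0.20, -0.21 and -0.36. Both dyes gave the same side, and replicate 4 did not stand apart. With the Cy3 signs changed the list median was -0.01. Since all 4 array medians lay below 0, that change largely had to bring it towards 0 and cannot test the fall. The size of the list's fall rests on the deposited signs.

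Mmp8, the neutrophil collagenase, had the largest fall of the list, at -0.76, -0.69, -0.50 and -1.09. Its fitted value was -0.76 (SE 0.09, n = 4, limma adjusted p = 0.00713; 0.734 with all 15 arrays). Elane, neutrophil elastase of the primary granules, was the tightest, at -0.55, -0.47, -0.42 and -0.54, with a fitted value of -0.49 (SE 0.05, n = 4, adjusted p = 0.00332; 0.824 with all 15 arrays). Ngp, a cathelin-related granule protein, read -0.45, -0.30, -0.80 and -0.83 and was lower on the Cy3 arrays than on the Cy5 arrays. Camp, the cathelicidin precursor, read -0.78, -0.26, -0.60 and -0.58, with replicate 2 nearest 0. S100a9, a subunit of calprotectin, read -0.37, -0.25, -0.29 and -0.58. Its probes had means of -0.55 and -0.19, and the latter probe read 0.12 on replicate 2. The fitted values of these last genes were -0.59, -0.55 and -0.37 (SE 0.07, 0.08 and 0.06, n = 4; limma adjusted p = 0.0084, 0.0131 and 0.0413).

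Other granule genes lay lower without passing. S100a8, the partner of S100a9 in calprotectin, stood at -0.23, -0.41, -0.69 and -0.74. Lcn2, a siderophore-binding lipocalin, stood at -0.46, -0.30, -0.20 and -0.36, and lactoferrin, Ltf, at -0.66, -0.09, -0.32 and -0.32. The probes of each differed in size, with means of -0.07 and -0.59 for Lcn2 and -0.59 and -0.10 for Ltf. Myeloperoxidase, Mpo, was closer to 0 at -0.16, -0.20, -0.21 and -0.34, and its 3 probes disagreed, with means of -0.36, -0.34 and 0.02. The list was not uniform. Proteinase 3, Prtn3, a primary granule protease like elastase, stood at 0.29, 0.15, -0.10 and 0.11, and Cebpe, a transcription factor of late granulopoiesis, at -0.06, -0.01, 0.04 and 0.14.

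**Figure D2:**
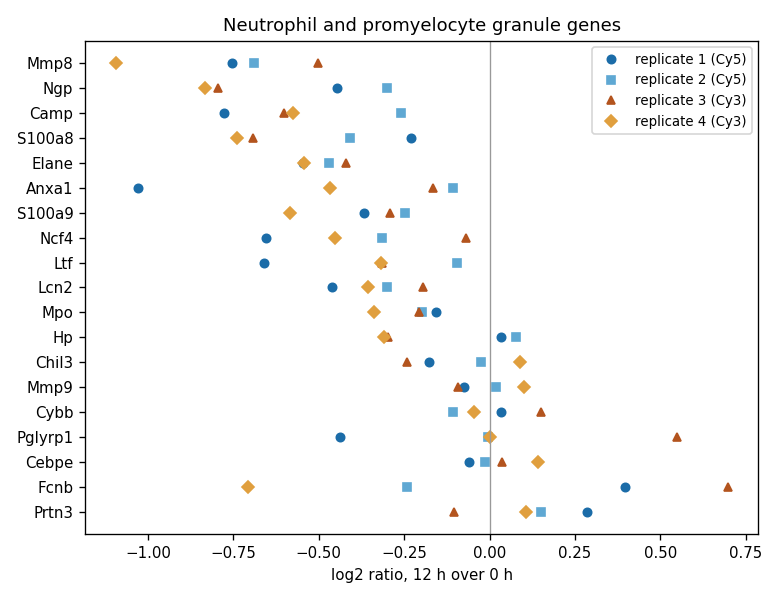
Log2 ratio at 12 h over 0 h (x axis) on the 4 arrays for the 19 tested granule markers, ordered by fitted value. For 11 genes, from Mmp8 to Mpo, all 4 points lie below 0, and Prtn3 at the other end has 3 of its 4 points above 0.

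The 5 granule genes that fell together are shown by their promoters, because C/EBP and PU.1 factors are known regulators of granule genes. Each line holds the 250 bases before the annotated start, 5' to 3' on the gene's strand, from RefSeq promoters on GRCm38.p6. They lie at chr10:79886062-79886311 (plus strand, Elane), chr9:7558179-7558428 (plus, Mmp8), chr9:110419558-110419807 (plus, Ngp), chr9:109849457-109849706 (minus, Camp) and chr3:90695722-90695971 (minus, S100a9). Capitals mark matches on either strand to TTGCNNAA, a C/EBP-type sequence, or to GAGGAA, a PU.1-type sequence.
Elane: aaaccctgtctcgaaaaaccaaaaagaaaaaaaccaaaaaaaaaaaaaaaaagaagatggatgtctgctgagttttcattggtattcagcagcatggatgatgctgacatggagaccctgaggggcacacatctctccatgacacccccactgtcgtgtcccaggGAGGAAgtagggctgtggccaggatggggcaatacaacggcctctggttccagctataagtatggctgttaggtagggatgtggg
Mmp8: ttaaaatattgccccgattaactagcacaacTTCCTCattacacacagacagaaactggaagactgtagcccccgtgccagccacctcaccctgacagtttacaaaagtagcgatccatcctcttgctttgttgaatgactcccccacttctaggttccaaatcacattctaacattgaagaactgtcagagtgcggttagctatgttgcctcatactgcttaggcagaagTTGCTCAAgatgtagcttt
Ngp: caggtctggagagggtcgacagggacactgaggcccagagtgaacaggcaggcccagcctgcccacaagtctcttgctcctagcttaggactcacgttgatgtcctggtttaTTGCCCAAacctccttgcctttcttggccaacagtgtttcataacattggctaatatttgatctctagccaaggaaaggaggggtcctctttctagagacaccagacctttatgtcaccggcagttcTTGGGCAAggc
Camp: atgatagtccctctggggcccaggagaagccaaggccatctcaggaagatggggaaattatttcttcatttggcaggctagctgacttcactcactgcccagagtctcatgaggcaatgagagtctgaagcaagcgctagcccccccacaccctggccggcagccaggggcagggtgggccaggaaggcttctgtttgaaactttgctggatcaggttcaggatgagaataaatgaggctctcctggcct
S100a9: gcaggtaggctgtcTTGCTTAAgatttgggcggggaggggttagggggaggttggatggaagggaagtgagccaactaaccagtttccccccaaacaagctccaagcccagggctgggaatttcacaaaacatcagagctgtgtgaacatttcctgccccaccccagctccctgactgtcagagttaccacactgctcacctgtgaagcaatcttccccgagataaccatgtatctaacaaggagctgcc
The C/EBP-type sequence was found 19 bases before the start of Mmp8, 138 and 11 bases before that of Ngp and 236 bases before that of S100a9, counted from the first base of the match. The PU.1-type sequence was found 85 bases before the start of Elane and 219 bases before that of Mmp8. The promoter of Camp held neither string in this window. Of 15 granule markers with a promoter in the table, 7 held TTGCNNAA and 9 held GAGGAA, against 9.55% and 23.1% of 27025 promoters. A match is a string of letters and not a measured site.

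Genes of the monocyte lineage gave a mixed picture. Lyz2, lysozyme of monocytes and granulocytes, fell, with values of -0.75, -0.63, -0.58 and -0.98 and a fitted value of -0.73 (SE 0.07, n = 4, limma adjusted p = 0.00117; 0.687 with all 15 arrays). Adam8, a metalloprotease of myeloid cells, fell by 0.35 (SE 0.06, n = 4, adjusted p = 0.0296), with replicate 2 at -0.15 and the others between -0.43 and -0.41. At 3 h Adam8 already read -0.43, -0.31, -0.36 and -0.44. Lyz2 and Adam8 were 2 of the 18 tested monocyte markers, and 0 rose, beside 0.18% lower and 0.0808% higher of all features. The list median was -0.08, and 6 of the 18 lay above 0, against 51.1% of all features. Array medians were -0.096 and -0.129 on replicates 1 and 2 (Cy5) and 0.002 and 0.028 on replicates 3 and 4 (Cy3). The list was thus low only on the Cy5 arrays. Fcgr3, an antibody receptor, stood at -0.23, -0.15, -0.17 and -0.17 and did not pass. Its probes differed in size, with means of -0.026, -0.032 and -0.475. Irf8, a transcription factor of monocytes, stood at 0.60, -0.10, 0.48 and 0.11.

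Other myeloid products were also lower. The chemokine Ccl6 fell, with values of -0.62, -0.32, -0.42 and -0.79 and a fitted value of -0.54 (SE 0.07, n = 4, limma adjusted p = 0.0131). Mcpt8, a protease of basophils, fell by 0.61 (SE 0.10, n = 4, adjusted p = 0.0313), with replicate 2 at -0.10 and replicate 4 at -1.04. It was the only call among 11 tested markers of mast cells, basophils and eosinophils, beside 0.18% of all features called lower. The median of the 11 was -0.04. No marker of the erythroid (20 tested), megakaryocyte (10), lymphoid (16), stem and progenitor (17), pluripotent (15) or stromal (26) lists passed in that fit, and the medians of these lists lay between -0.02 and 0.04.

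S100a6, a calcium-binding protein of growing cells, had the largest fall of the called genes with a symbol. It stood at -0.90, -0.82, -0.52 and -0.98, all far from 0, and the fit gave -0.80 (SE 0.08, n = 4, limma adjusted p = 0.00332; 0.40 with all 15 arrays). Of 25 tested S100 proteins and annexins 2 fell, S100a6 and S100a9, beside 0.18% of all features, and the list median was -0.04. It was 0.01 with the Cy3 signs changed. Anxa1, an annexin of granulocytes, stood at -1.03, -0.11, -0.16 and -0.47, so replicate 1 carried most of its mean.

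Several regulators and transporters fell too. Mxd1, which partners MAX in place of MYC, stood at -0.94, -0.46, -0.40 and -0.57, with a fitted value of -0.59 (SE 0.10, n = 4, limma adjusted p = 0.0475). Klf6, a zinc-finger factor, was among the most even as a mean of its probes, at -0.35, -0.40, -0.35 and -0.50. Its limma adjusted p was 0.0259, and 0.522 with all 15 arrays. The probes differed in size, with means of -0.61 and -0.18. Ier3, an immediate early gene and the only call among 27 tested targets of interleukin-3 and STAT5, fell by 0.52 (SE 0.07, n = 4, adjusted p = 0.0084), and the metallothionein Mt1 by 0.53 (SE 0.07, n = 4, adjusted p = 0.00871) with replicate 2 at -0.14. Both were already low at 3 h. Ier3 read -0.71, -0.55, -0.66 and -0.54 there, and Mt1 -0.59, -0.57, -0.97 and -0.705. Their differences between 12 h and 3 h, 0.09 and 0.18, did not pass in that fit. Slc7a5, the light chain of a large neutral amino acid transporter, fell by 0.50 (SE 0.07, n = 4, adjusted p = 0.0168). It was 1 of 29 tested genes of the unfolded protein and amino acid response to pass. Over all features 0.18% were called lower, beside this 1 of 29 and the 1 of 27 interleukin-3 and STAT5 targets. Xbp1, the spliced factor of the unfolded protein response, stood at -0.54, -0.63, -0.13 and -0.19 without passing. Lama5, a laminin chain, fell by 0.45, Reep6 by 0.41, the retinal reductase Dhrs3 by 0.38, Dhrs1 by 0.35 and Klhdc7a, with 3 arrays, by 0.69.

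Glycolysis gave 1 call among 21 tested genes, beside 0.18% of all features called lower. Aldoa, the muscle-type aldolase, fell by 0.36 (SE 0.06, n = 4, limma adjusted p = 0.0394), with arrays at -0.31, -0.13, -0.36 and -0.64. Of 21 tested genes of glycolysis and glucose uptake 17 lay below 0, against 48.9% of all features. On every array 8 were below 0, against 7.01% of all features. Hk2, a hexokinase, stood at -0.70, -0.77, -0.14 and -0.47 and did not pass. The list median was -0.13, with array medians of -0.06, -0.13, -0.16 and -0.26, and it was 0.08 with the Cy3 signs changed. At 3 h, against the same reference, the list median was -0.19.

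How far these calls depend on single arrays was examined by leaving out each 12 h array in turn from the fit without the arrays in doubt. The 42 were chosen with all 4 of these arrays. Each such fit thus reuses arrays that chose them, and passing again is no independent support. That left 21, 28, 59 and 30 calls without replicates 1, 2, 3 and 4. Of the 42, 12 passed in every such fit, 9 of them with a symbol: Glud1, Pank1, Lyz2, Smc4, S100a6, Elane, Mmp8, Ngp and Camp. With all 15 arrays none of these 9 passed, with limma adjusted p-values from 0.192 for Smc4 to 0.85 for Camp. Without replicate 1 only 16 of the 42 passed, without replicate 2, 22, without replicate 3, 31, and without replicate 4, 19. Pcna was called without replicate 3 or 4 (adjusted p = 0.0434 and 0.00453) and not without replicate 1 or 2 (0.119 and 0.0708).

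**Figure D3:**
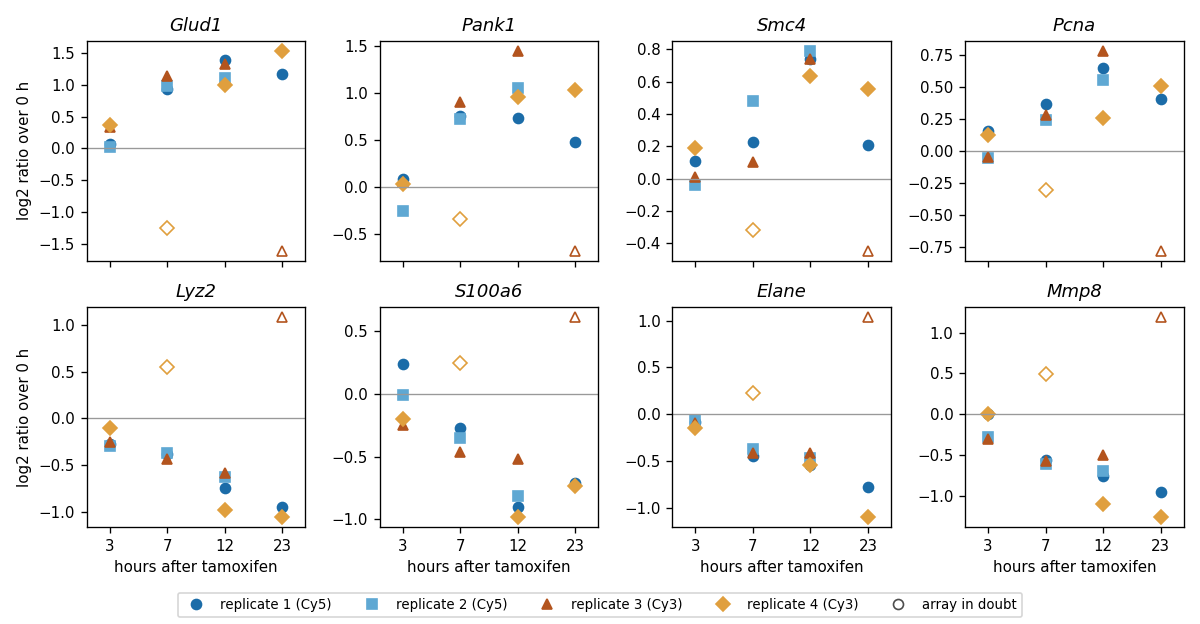
Log2 ratio over 0 h (y axis) against hours after tamoxifen (x axis, not to scale) for 8 genes on the 15 arrays, with open symbols for 7 h replicate 4 and 23 h replicate 3. At 12 h the 4 points of a gene lie on 1 side of 0. Both open points lie on the opposite side in each panel. The genes shown are among those called without these arrays, a choice that favours genes on which the arrays run opposite. The panels therefore cannot test whether these arrays run opposite to their groups.

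The course around 12 h was compared by the difference from each other time. With all 15 arrays, 0 features passed in limma against 3 h, 7 h or 23 h, with 1655 (10.3%), 723 (4.51%) and 549 (3.42%) at an unadjusted p under 0.05. Of all features, 4.92% were higher and 5.38% lower than at 3 h on that unadjusted scale. The shares were 2.74% and 1.76% against 7 h, and 1.79% and 1.62% against 23 h. Without the arrays in doubt 3 features passed against 3 h, all higher at 12 h. Glud1 differed by 1.003 (SE 0.11, n = 4 at each time) and Pank1 by 1.07 (SE 0.13), each with a limma adjusted p of 0.0267. At 3 h Glud1 read 0.08, 0.02, 0.33 and 0.37, below every 12 h array, and Pank1 read 0.09, -0.26, 0.05 and 0.02. The third was Bnip3, a mitochondrial protein of mitophagy, which differed by 1.09 (SE 0.13). Its 12 h values were 0.16, 0.16, -0.62 and -0.87, so they split by dye, and its 3 h values were -1.09, -1.01, -1.74 and -1.69.

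For the granule genes the same differences from 3 h did not pass. Elane differed by -0.40 (SE 0.08, limma adjusted p = 0.214) and Lyz2 by -0.50 (SE 0.09, adjusted p = 0.214), and Smc4 by 0.66 (SE 0.11, adjusted p = 0.12). From 7 h, Elane, Mmp8, Ngp, Camp and S100a9 differed by -0.07, -0.17, -0.22, 0.15 and -0.003. From 23 h they differed by 0.45, 0.35, 0.50, 0.65 and 0.33, so at 23 h they lay lower still. None of these differences passed. Against 7 h the fit without both arrays called 1 probe without a symbol, probe14126, with a difference of -2.85 (SE 0.26, limma adjusted p = 0.0248). It was high on 7 h replicates 2 and 3, at 2.53 and 3.10, and between -0.21 and 0.12 at 12 h. It had no value on 7 h replicate 1 and read -3.48 on replicate 4, which was left out, so the call rests on 2 arrays at 7 h. Against 23 h it called Hs1bp3 and Slc27a5, a bile acid and fatty acid ligase, which differed by -0.98 (SE 0.10) and -1.09 (SE 0.12), both with a limma adjusted p of 0.0153. At 12 h Hs1bp3 lay between -0.05 and 0.17 and Slc27a5 between -0.11 and 0.10, while 23 h replicates 1 and 4 read 1.005 and 1.15 for Hs1bp3 and 0.93 and 1.23 for Slc27a5. These 3 features were named after their values were seen, and only 2 arrays at 23 h remained in that fit.

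Clk4 was the only call among 78 tested splicing factors and CLK kinases in both fits. Of all features, 0.0124% were called higher with every time-course array and 0.0808% without the arrays in doubt. With every time-course array, 0 features passed when large recurring values were left out or values were required on all 4 arrays. The median of the 78 was 0.03, and 54 lay above 0, against 51.1% of all features. In the group of heterogeneous nuclear ribonucleoproteins, which package nuclear transcripts, 0 passed and 11 of 14 lay above 0, against the same 51.1%. Their median was 0.12, with array medians of 0.14, 0.10, 0.18 and 0.01. Hnrnpu, a scaffold protein of the group, stood at 0.68, 0.53, 0.10 and 0.29, and Hnrnpa2b1 at 0.66, 0.37, 0.44 and 0.08. Replicate 4 was thus the lowest array for the list, and the list median was 0.02 with the Cy3 signs changed.

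**Figure D4:**
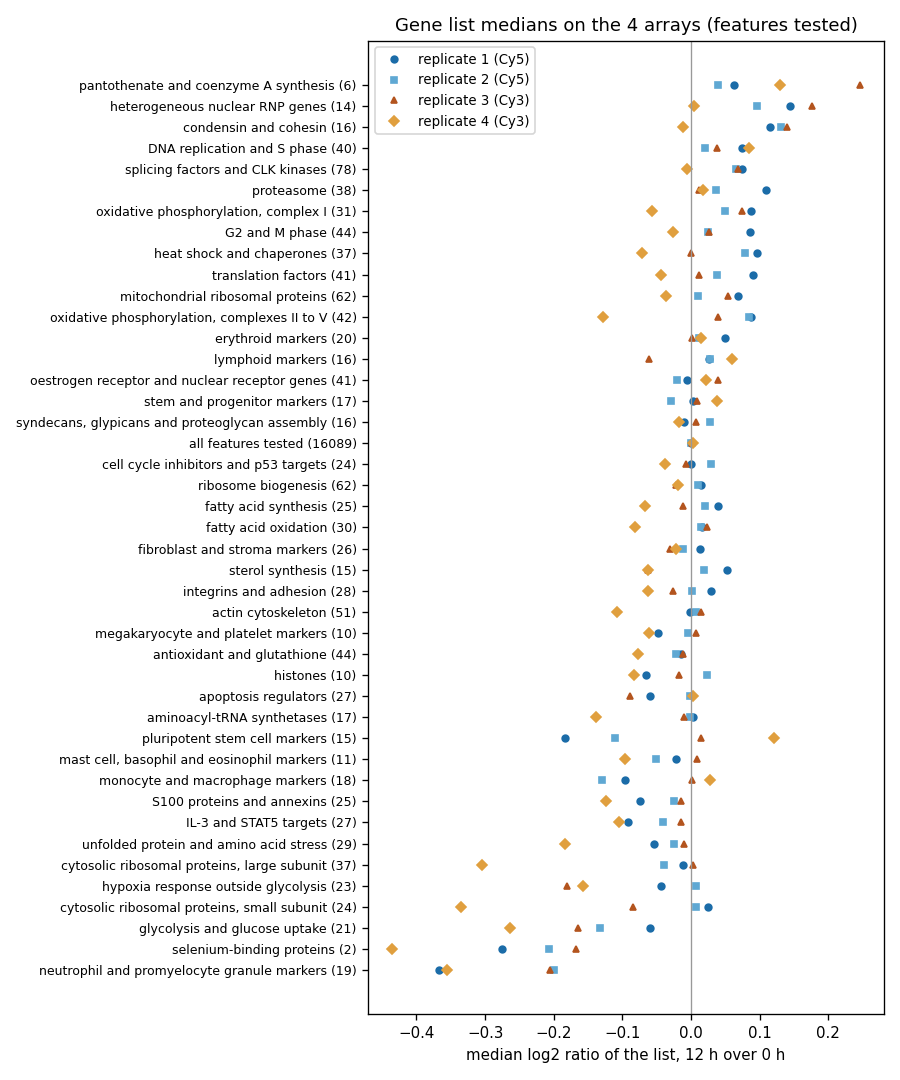
Median log2 ratio at 12 h over 0 h (x axis) of each of 42 gene lists and of all features on the 4 arrays (points), ordered by the mean of the 4 medians, with the number of tested features in brackets. Granule markers lie lowest, between -0.37 and -0.20, and for both cytosolic ribosomal lists the replicate 4 point, at -0.30 and -0.34, stands left of the others.

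Ribosomal protein genes stood lower on replicate 4 than on the other arrays at 12 h, and that array is shown apart. The fitted median of the list was -0.09 at 12 h and also -0.09 at 3 h. Of 61 tested genes of both cytosolic subunits, 0 passed in either fit and 52 had fitted values below 0, against 48.9% of all features. Their medians were 0.00, -0.02 and -0.02 on replicates 1 to 3 and -0.33 on replicate 4. Replicate 4 was the lowest array for 45 of the 61 genes (73.8%), against 26.4% of all features with 4 values. On that array 56 of the 61 lay below 0, on the others 29, 32 and 33. Without replicate 4 the median over genes of the mean of the other arrays was -0.01. The large subunit, with 37 genes, and the small subunit, with 24, behaved alike on it, at -0.30 and -0.34. Mitochondrial ribosomal proteins, 62 genes, stood at 0.07, 0.01, 0.05 and -0.04 on the 4 arrays.

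**Figure D5:**
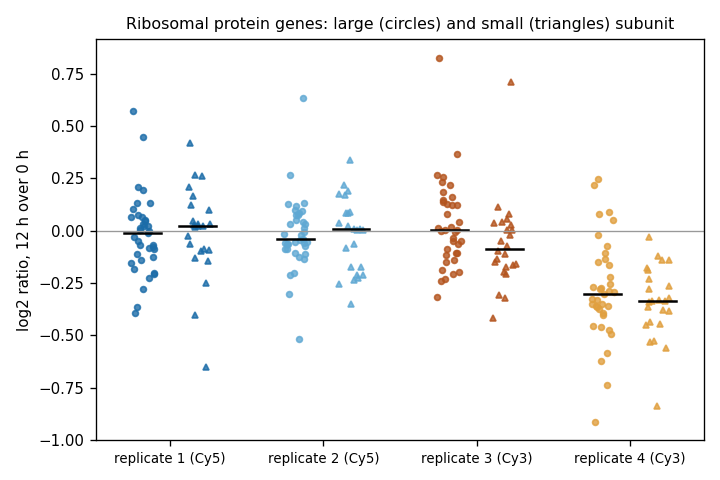
Log2 ratio at 12 h over 0 h (y axis) of 37 large-subunit (circles) and 24 small-subunit (triangles) ribosomal protein genes on each array (x axis), with black bars at the medians. The medians of replicates 1 to 3 lie between -0.09 and 0.03 and those of replicate 4 at -0.30 and -0.34.

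Rps15a, a small-subunit protein, stood at -0.25, -0.18, -0.31 and -0.33, low on every array, and did not pass (adjusted p = 0.477 in limma). It was 1 of 7 among the 61 ribosomal genes below 0 on all 4 arrays, where 7.01% of all features were. Replicate 4 was also the lowest array for the medians of translation factors (-0.04), aminoacyl-tRNA synthetases (-0.14) and the oxidative phosphorylation complexes II to V (-0.13). For translation factors the other medians lay between 0.01 and 0.09, and for complexes II to V between 0.04 and 0.09. Whether RNA quality or labelling on replicate 4 plays a part was not tested, since no value in the table measures either.

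The tamoxifen target Esr1, oestrogen receptor alpha, read -0.01, 0.00, 0.06 and 0.09 as the mean of its probes, around 0 on all 4 arrays. Each single probe lay on both sides of 0 across the arrays, with values from -0.28 to 0.46. None of the 41 tested nuclear receptors and coactivators passed in either fit. Selenbp1 and Selenbp2, selenium-binding proteins, lay below 0 on every array at 12 h, with Selenbp2 at -0.30, -0.35, -0.07 and -0.64, and did not pass. At 3 h their fitted values were -0.95 and -1.06. Genes with a large mean often rested on few arrays. Sdc1, a syndecan, read -0.64, -1.05, -0.99 and 0.08 as the mean of 2 probes whose own means were -1.31 and 0.01, and Acadl, an acyl-CoA dehydrogenase, read 1.07, 1.75 and 0.11 on 3 arrays. With arrays weighted by their own spread both passed (limma adjusted p = 0.0326 for Sdc1 at 12 h and 0.0353 for Acadl at 12 h), as did Sdc1 without replicate 4 and Acadl without replicate 3.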

How the data were processed

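Per the labels' protocols, cDNA made from total RNA received its Cy3 or Cy5 dye indirectly. The authors deposited 1 log ratio per spot, read here as log2; for its base, numerator and normalization the sources used here give nothing. Absolute values above 10 were set to missing, every array was centred on its median, and probes of 1 gene were averaged. Of 20205 probes, 13891 had 1 gene symbol in the platform annotation, which may be old, 5 several and 6309 none, giving 16148 features. A feature was tested with values on at least 3 of the 4 arrays at 12 h.

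The design used limma 3.58.1 in R 4.3.3 on 15 time-course arrays with a coefficient for each time and 1 for dye, and Benjamini-Hochberg adjustment over all features. On simulated data for 12 h against 0 h (16089 features), it recovered 74% of 100 changes of size 0.5 and 92% of 100 of size 1, with 11 false calls. The simulated noise was normal and independent between arrays, with the fitted spread of each feature. It held no dye effect, no recurring values and no arrays that run opposite to their group. These shares therefore do not give the power on the real arrays. Lists were described by counts and medians, without a test. The members and lists were chosen with earlier results of these data known. Named genes were those called, the 12 ranked highest by p on each side among genes on 1 side of 0 on every array, 3 per list, genes of earlier accounts, and the top 3 of each difference between times; genes called without both arrays in doubt, and some others, were named after their values were seen. The fit without both arrays in doubt was listed with the design, before the files were read but with those results known; leaving out 1 of them, combining it with changed signs or 12 h arrays left out, and leaving out recurring values were chosen after seeing the data. Promoters were matched by symbol, the first listed per gene. Replicate 2 at 23 h was not analysed here.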

Additional observations from a re-analysis of the deposited data

Results flagged for a closer look

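Among 187 named genes and 43 gene lists with values on all 4 arrays, 19 had 1 array far from the other 3, judged by its gap over the range. Chance flags about 1 in 20 such groups. The flagged genes were close to that share of the 187, so the single genes named below are not read as a result. Flagged lists were a larger share of the 43, but the lists are not independent. The list of all ribosomal proteins holds the large subunit, and a shift of 1 array enters every list. For most, the distant array was replicate 4. It stood at -0.329 for all ribosomal proteins (others -0.018 to 0.004), -0.304 for the large subunit, -0.139 for aminoacyl-tRNA synthetases, -0.108 for the actin cytoskeleton, -0.082 for fatty acid oxidation and -0.077 for antioxidant genes. It stood at -0.012 for condensin and cohesin and at -0.006 for splicing factors, where the others lay above 0.

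Replicate 4 was also apart for single genes. It read 0.641 for Eif3i, a translation initiation subunit, -0.822 for Eno1b, an enolase, -0.684 for the chemokine Ccl9, -0.604 for Anxa3, 0.215 for Trim47 and -0.226 for Hnrnpl. Replicate 3 was apart for Ccna2 at 0.293, Ndufb4 at 0.64 and Blnk at -0.205. Replicate 2 was nearer 0 than the others for Adam8 at -0.147 and for Reep6 at -0.329.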

How the results depend on the processing

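For 12 h versus 0 h, 3 features passed by design. The count was 0 with the spread of the 4 arrays at 12 h alone, with extreme values kept, with values on all 4 arrays, with large recurring values left out and with the Cy5 arrays alone, 1 with the Cy3 arrays alone, 5 with probes kept apart, 20 with array weights, 42 without both arrays in doubt and 396 with array weights and the Cy3 signs changed. It was 3 with all 19 arrays, the same features, and 3 with the Cy3 signs changed, of which 0 were the same. Leaving out single arrays gave 1 to 59, with both arrays in doubt kept or left out. The causes were not tested.

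Against 3 h, 7 h and 23 h, where 0 passed, single arrays left out gave 0 to 7, 0 to 8 and 0 to 6. Changed Cy3 signs, alone, with array weights or without both arrays in doubt, gave 1 in each comparison, and so did the Cy3 arrays alone. Quantile normalization gave 2 against 3 h and 2 against 7 h, the Cy5 arrays alone 3 against 23 h, and leaving out both arrays in doubt 3, 1 and 2.

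With the Cy3 signs changed, list medians were -0.0130 for granule markers, 0.0221 for condensin and cohesin, 0.0122 for S phase, 0.0207 for nuclear ribonucleoproteins, 0.0830 for glycolysis, 0.0732 for hypoxia and 0.0785 for ribosomal proteins, the same without both arrays in doubt. With array weights added they were -0.0212 for granule markers, 0.0246 for ribonucleoproteins, 0.0834 for glycolysis, 0.0863 for hypoxia and 0.0181 for S100 proteins and annexins. With the Cy3 arrays alone the monocyte median was -0.0045 and that for hypoxia -0.1985. Single arrays left out gave -0.3786 to -0.2346 for granule markers and 0.0314 to 0.0843 for S phase. Clk4 at 12 h turned to -0.9921, -0.9767 without both arrays in doubt and -0.3566 with array weights.

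Between times, residuals of same-numbered arrays correlated at -0.196 to -0.002 over 21 pairs (mean -0.12). Those of arrays with other numbers correlated at -0.245 to 0.202 over 63 pairs (mean 0.04). Same-numbered arrays also share the dye, whose term was removed, and the residuals include both arrays in doubt. The check therefore cannot decide whether replicate numbers pair the arrays. With the replicate number as a block, 3 features passed for 12 h versus 0 h and 0 for each difference between times.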
